A study of Homo sapiens with 12 samples.

Results

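Expression of 9 genes of the death receptor and caspase pathway was followed in ES-2 cells: the receptors FAS, TNFRSF10A, TNFRSF10B and TNFRSF1A, the adaptors FADD and TRADD, the caspase-8 regulator CFLAR, and the initiator caspases CASP8 and CASP9. They were chosen by symbol as genes of this pathway, and all 9 are among the 14029 genes tested. ES-2 is an established human ovarian cancer line. The cells carried either a control vector (PLKO) or an SRMS shRNA, a short hairpin RNA against the tyrosine kinase SRMS, and both groups used here received 15 µM cisplatin, a DNA-crosslinking drug, for 8 hours. Values were used for 6 of the series' 12 samples, 3 per construct. Since the PBS samples are not analysed here, no response to cisplatin was measured. Neither the hairpin's sequence nor whether a construct is 1 clone or a pool is stated in the labels. Replicates are not said to be separate cultures, and the p-values therefore cover only sample-to-sample spread, possibly technical.

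Death receptors are cell surface proteins of the TNF receptor family with a death domain inside the cell. When FAS or a TRAIL receptor binds its ligand, the adaptor FADD joins the receptor and brings caspase-8, which is cut to its active form and cuts the executioner caspases. TNF receptor 1 first recruits TRADD and RIPK1 and mainly signals survival through NF-κB. CFLAR, which resembles caspase-8 but has no protease activity, can restrain caspase-8 downstream of these receptors. Caspase-9 starts the mitochondrial route, which DNA damage by platinum drugs is best known to engage.

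In the libraries labelled SRMS shRNA, 7 of the 9 genes were lower and none was higher. Mean signal decreased by 40.2% for TNFRSF1A, the largest fall, and decreased by 33.2% for FADD and 25.4% for CASP8. That of FAS decreased by 21.9% and that of CASP9 decreased by 17.5%, while the means of TNFRSF10B and TNFRSF10A decreased by 15.9% and 15.2%. TRADD and CFLAR did not pass the test. Calls are those of limma on log2(signal + 0.5) with an adjusted p under 0.05 over all genes, and 30.2% of all genes were called lower and 26.6% higher. The groups did not overlap, with SRMS shRNA lower, for these same 7 genes, against 32.9% of all genes, and did so in the higher direction for 0 of the 9, against 29.7%. The median log2 fold change was -0.25 over the 9 and 0.0031 over all genes tested. In bulk RNA, fewer cells with a transcript and less of it per cell cannot be told apart.

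**Figure D1:**
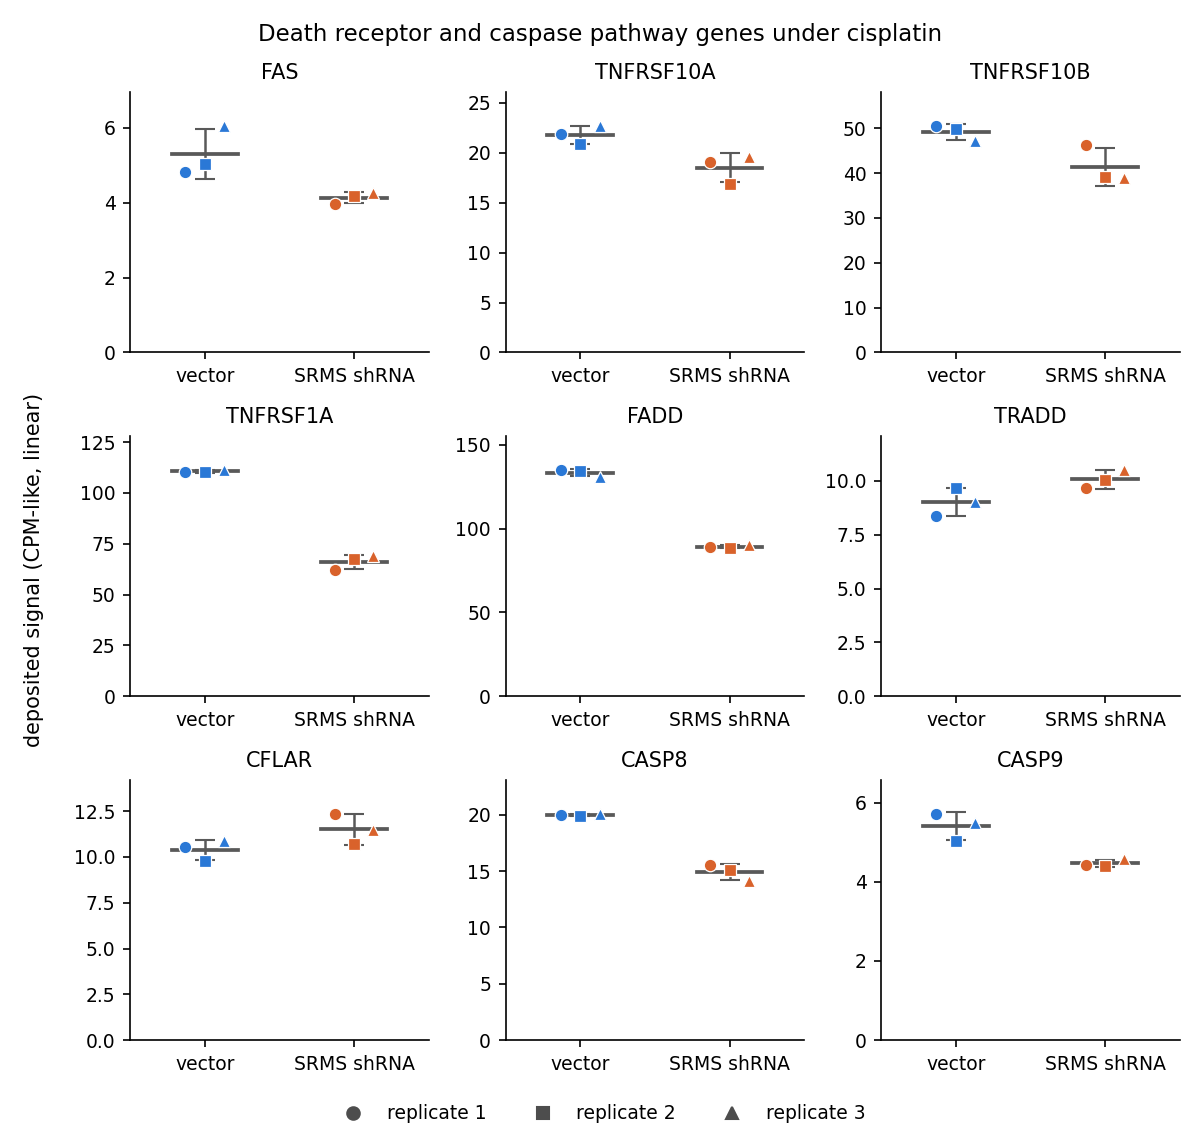
Deposited signal (vertical axes, linear and scaled as for CPM, each starting at 0) of the 9 genes in each of the 6 cisplatin-treated libraries. Bars give mean and SD, and symbols mark replicate numbers. For TNFRSF1A the 3 vector libraries lie at 110 to 111 and the 3 labelled SRMS shRNA at 62.3 to 68.8, whereas TRADD and CFLAR overlap between the constructs.

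How libraries are scaled bears on these counts. The deposited scaling leaves the median gene at 0.0031, and aligning the libraries on their median log2 value adds 0.16 to every log2 fold change. Then 3 of the 9 genes, TNFRSF1A, FADD and CASP8, were lower, and 2, TRADD and CFLAR, were higher, while the other 4 kept a negative sign without passing the test. Under that alignment 17.9% of all genes were lower and 44.6% higher. Under quantile scaling 5 were lower and the same 2 higher, against 26.3% and 28.3% of all genes. With the trend of fold change with transcript length and GC content removed, 5 were lower and CFLAR was higher (24.4% and 24% of all genes), FAS and TNFRSF10B missing the threshold. Counting tests on recovered reads gave 7 lower by edgeR and 6 by DESeq2 (29.7% and 27% of all genes), and 0 higher by either (27.7% and 25.6%). Replicate 1 of each construct stood apart from replicates 2 and 3 across genes, and with replicates 2 and 3 averaged as 1 sample 4 of the 9 were lower and 0 higher, against 23.5% and 19.8% of all genes. Without vector replicate 3, or without SRMS shRNA replicate 2, 4 were lower as well. Over all genes these 2 fits called 6895 and 6927 in either direction, against 7969 with every library.

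**Figure D2:**
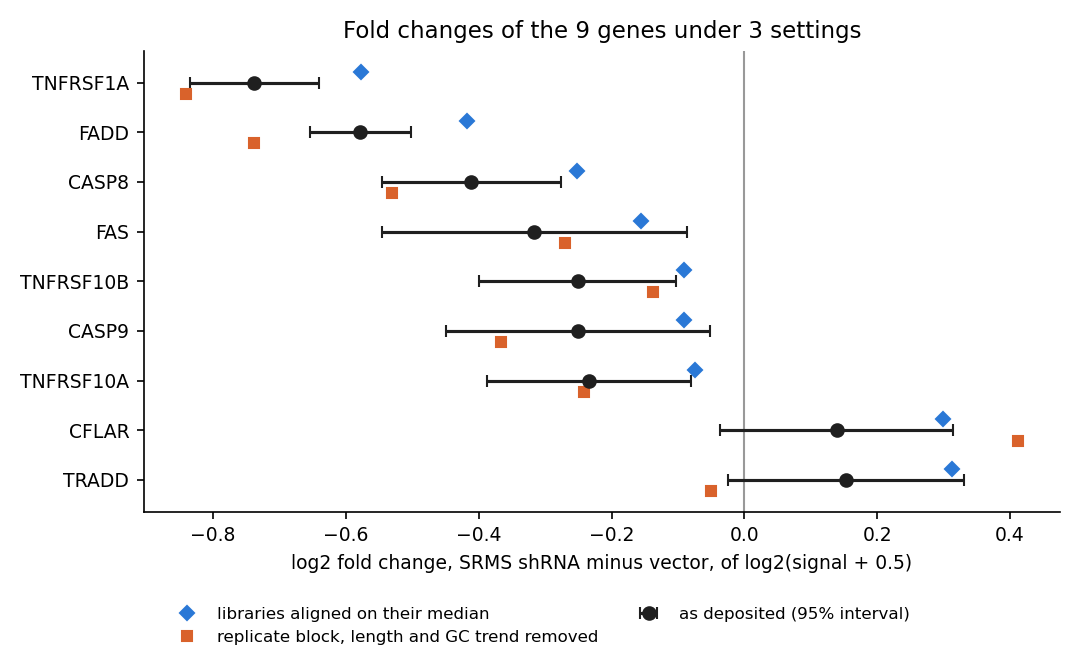
Log2 fold change, SRMS shRNA minus vector, of log2(signal + 0.5) for the 9 genes. Black points are the values as deposited with 95% intervals, blue diamonds those with libraries aligned on their median, and orange squares those blocked by replicate number after removal of the dependence on transcript length and GC content. The 7 genes called lower as deposited, TNFRSF1A, FADD and CASP8 among them, lie below 0 in all 3. TRADD changes sign, from 0.15 to -0.05.

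The SRMS transcript did not fall with the construct labelled SRMS shRNA. It was counted in 2, 14 and 47 reads in vector replicates 1, 2 and 3 and in 9, 39 and 27 in those labelled SRMS shRNA, a signal of 0.397 ± 0.384 against 0.755 ± 0.384 (mean ± SD, n = 3 each). The log2 fold change of SRMS was 0.52 (adjusted p by limma 0.168). In a fit blocked by replicate number the adjusted p by limma was 0.00782, toward more SRMS. Directions are therefore given for the libraries as labelled.

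The libraries held 28009232 to 56855428 recovered reads over the listed genes, and each of the 9 genes had at least 109 reads in every library. Of markers for the labelled cell type, keratins KRT7, KRT8 and KRT18 were abundant, at means of 697, 92.9 and 875 with the vector, whereas PAX8, a marker of ovarian carcinomas, was near 0 (mean 0.136). Other listed markers differed between the constructs. KRT7 was lower (mean 543) and KRT8 and KRT18 higher (105 and 1015) with SRMS shRNA. The ovarian carcinoma genes WT1 and ARID1A fell from 2.84 to 1.42 and from 78.2 to 41.4. Mesenchymal markers were split: VIM rose from 5387 to 6575 and FN1 from 714 to 862. CDH2 fell from 71.3 to 63.1 and ZEB1 from 27.4 to 19.7. Under quantile scaling VIM (-0.05) and KRT18 (0.05) were not called. After length and GC correction KRT8 (0.05), KRT18 (0.002) and CDH2 (-0.02) were not called. CDH2 was also not called with libraries aligned on their median (-0.01). EPCAM, CDH1 and MUC16 are not among the genes of the table used here. Of 10 leukocyte markers 4 were listed, and PTPRC, CD3D, CD3E and MS4A1 were not among them. The 4 had a summed signal of 6.27 to 6.89 with the vector and 8.80 to 9.67 with SRMS shRNA. Most of it came from CORO1A (means 5.47 and 5.58), and most of the rise from CD14 (0.879 to 3.24). Of 5 endothelial markers 3 were listed, with sums of 14.8 to 16.8 and 5.88 to 8.36, mostly from CDH5. The part of these differences in the results was not tested.

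Among the receptors, TNFRSF1A, which encodes TNF receptor 1 (ENSG00000067182, chr12:6328757-6342114 in GRCh38, minus strand), changed most. Its signal was 110.1, 110.2 and 111.4 in vector replicates 1, 2 and 3 and fell to 62.3, 67.3 and 68.8 in replicates 1, 2 and 3 labelled SRMS shRNA. The constructs were thus far apart, with the vector libraries within 2 units of each other. On the log2 scale the difference was -0.74 (95% interval -0.83 to -0.64, SE 0.0436) and the adjusted p by limma was 8.4e-07. Only 3.77% of all genes had a fold change as low or lower. The fall was called in all 20 alternative settings, where it ran from -0.84 to -0.58.

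FAS, the receptor for FAS ligand (ENSG00000026103, chr10:88990582-89015785, plus strand), was a low-abundance transcript with 109 to 347 reads. It had a signal of 4.82, 5.02 and 6.05 with the vector and 3.98, 4.18 and 4.25 with SRMS shRNA. The groups did not overlap, but vector replicates 1 and 2 were nearer to the highest SRMS shRNA library than to vector replicate 3. The log2 fold change was -0.32 (SE 0.103, limma adjusted p = 0.0235). Without vector replicate 3 it was -0.23 (limma adjusted p = 0.11) and without SRMS shRNA replicate 2 it was -0.32 (limma adjusted p = 0.0517), in a range of adjusted p from 0.00873 to 0.21 over all alternatives. FAS overlaps ACTA2 on the opposite strand, which had 59 to 147 reads and a log2 fold change of -0.28 with an adjusted p of 0.0521 by limma. Libraries were stranded, but the strand setting of the counting is not stated, so reads of such partners may not have been separated.

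The TRAIL receptors TNFRSF10A and TNFRSF10B, known as DR4 and DR5, both carry a death domain and lie near each other on chromosome 8, at chr8:23190452-23225126 and chr8:23020133-23069179, both on the minus strand. TNFRSF10A had a signal of 21.9, 20.9 and 22.7 with the vector and 19.1, 16.9 and 19.6 with SRMS shRNA. TNFRSF10B had 50.5, 49.9 and 47.3 against 46.2, 39.2 and 38.8. In both genes all vector libraries were higher, by a narrow margin: SRMS shRNA replicate 3 of TNFRSF10A and replicate 1 of TNFRSF10B came within 2 units of the lowest vector library. Fitted log2 fold changes were -0.23 for TNFRSF10A (SE 0.0694, limma adjusted p = 0.015) and -0.25 for TNFRSF10B (SE 0.0669, limma adjusted p = 0.00867). With libraries aligned on their median they were -0.07 and -0.09 (limma adjusted p = 0.361 and 0.237), and over all alternatives the adjusted p ran from 0.000658 to 0.361 and from 2.32e-06 to 0.237. After length and GC correction TNFRSF10B had -0.14 (limma adjusted p = 0.112). TNFRSF10A also missed the threshold without vector replicate 3 (limma adjusted p = 0.065) and without SRMS shRNA replicate 2 (limma adjusted p = 0.0594).

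FADD, the adaptor that links these receptors to caspase-8 (ENSG00000168040, chr11:70203163-70207390, plus strand), was the most abundant of the 9. Its signal was 135.2, 134.3 and 131.0 with the vector and 89.0, 88.5 and 90.3 with SRMS shRNA. The spread within each construct was a small part of the gap between them. This was a log2 fold change of -0.58 (95% interval -0.65 to -0.50, SE 0.034, limma adjusted p = 8.28e-07), and it was called in all 20 alternatives, between -0.74 and -0.42.

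TRADD, the adaptor of TNF receptor 1 (ENSG00000102871, chr16:67154180-67160298, minus strand), did not pass the test. It had a signal of 8.36, 9.69 and 9.01 with the vector and 9.67, 10.0 and 10.5 with SRMS shRNA, so the groups overlapped by a narrow margin. The fitted log2 difference for TRADD was 0.15 (95% interval -0.03 to 0.33, SE 0.0802, limma adjusted p = 0.128). It was 0.31 with libraries aligned on their median (limma adjusted p = 0.00695) and -0.05 after length and GC correction (limma adjusted p = 0.641), the ends of the range over all alternatives. TRADD overlaps FBXL8 on the opposite strand, whose signal rose from 12.3 ± 1.04 to 15.3 ± 1.53 (limma adjusted p = 0.0169).

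CFLAR, which encodes the caspase-8 inhibitor c-FLIP (ENSG00000003402, chr2:201116104-201176687, plus strand), had a signal of 10.5, 9.80 and 10.9 with the vector and 12.4, 10.7 and 11.5 with SRMS shRNA. SRMS shRNA replicate 2 lay below vector replicate 3, so the groups overlapped. For CFLAR the log2 difference was 0.14 (95% interval -0.04 to 0.31, SE 0.079, limma adjusted p = 0.157). Aligned on the median it was 0.30 (limma adjusted p = 0.00641), and over all alternatives the adjusted p ran from 2.73e-05 to 0.394. The smallest of these came from the blocked fit after length and GC correction, where the value of 0.41 rests on an annotated transcript of 14672 nt, and another principal transcript has 2128 nt. The annotation holds 18 coding transcripts of CFLAR, whose long and short protein forms these gene-level values do not separate.

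CASP8, the initiator caspase of the receptor route (ENSG00000064012, chr2:201233443-201287711, plus strand), is a neighbour of CFLAR on chromosome 2 and, unlike it, passed the test. Its signal was 19.97, 19.87 and 20.11 with the vector and 15.54, 15.09 and 14.10 with SRMS shRNA. The vector libraries lay close together, and all SRMS shRNA libraries lay far below them. CASP8 fell by a log2 fold change of -0.41 (95% interval -0.55 to -0.28, SE 0.0607, limma adjusted p = 0.000243), and all 20 alternatives called it, from -0.53 to -0.25.

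CASP9, the initiator caspase of the apoptosome (ENSG00000132906, chr1:15490832-15526534, minus strand), had the fewest reads after FAS, 121 to 315. It had a signal of 5.72, 5.02 and 5.49 with the vector and 4.415, 4.399 and 4.572 with SRMS shRNA. The SRMS shRNA libraries were close to each other and below every vector library. CASP9 overlaps CELA2B on the opposite strand, which had 3 to 11 reads. The log2 fold change was -0.25 (SE 0.0896, limma adjusted p = 0.0346), the weakest call of the 7. Without vector replicates 1 or 3, or SRMS shRNA replicates 1, 2 or 3, the limma adjusted p was 0.107, 0.0983, 0.062, 0.0811 or 0.0576, and it was 0.00355 to 0.388 over all alternatives.

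Upstream sequence is shown for the 3 genes with the largest falls, to set their promoters side by side. Of the 9 genes, 6 have an entry in the RefSeq promoter table (GRCh38.p14), which holds 250 bases before each start. Printed are the bases of that window that precede the GENCODE gene, with capitals for the GC box GGGCGG and the CCAAT box on either strand:
TNFRSF1A, chr12:6342115-6342326, minus strand: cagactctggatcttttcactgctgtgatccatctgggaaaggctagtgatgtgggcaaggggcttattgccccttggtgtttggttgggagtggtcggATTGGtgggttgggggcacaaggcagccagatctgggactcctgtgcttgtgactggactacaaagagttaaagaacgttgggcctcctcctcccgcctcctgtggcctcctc
FADD, chr11:70203046-70203162, plus strand: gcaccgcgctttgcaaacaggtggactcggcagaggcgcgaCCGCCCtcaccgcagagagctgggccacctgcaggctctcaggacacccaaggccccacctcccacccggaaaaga
CASP8, chr2:201233213-201233442, plus strand: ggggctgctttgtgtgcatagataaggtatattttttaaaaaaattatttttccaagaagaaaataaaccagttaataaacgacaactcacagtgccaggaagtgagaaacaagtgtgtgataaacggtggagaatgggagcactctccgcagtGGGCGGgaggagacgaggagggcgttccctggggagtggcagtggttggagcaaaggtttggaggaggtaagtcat
In the full windows FADD has 2 GC boxes, CASP8 has 1 at this start and TNFRSF1A has 0 with 1 CCAAT box. These 3 windows have no box in common. GGGCGG lies in 42.6% and CCAAT in 32.0% of all 35116 promoter windows. A TATAAA, found in 10.7% of windows, lies in none of these 3. Other CASP8 starts differ: the window at chr2:201257785-201258034 has 2 CCAAT boxes, 1 TATAAA and 0 GC boxes. That at chr2:201260286-201260535 has 0 of each. The windows at the 3 starts shown differ in base composition too. Their GC content is 56.8% for TNFRSF1A, 68.8% for FADD and 45.6% for CASP8. A match to these letters is a description and does not show binding.

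The hexamer CGTGTC, picked out in an earlier scan of these same fold changes, was looked for on the sense strand of 1 annotated transcript per gene. It occurs in 3 of the 9, TNFRSF10A, FADD and CFLAR, against 28.5% of all genes. The sites of FADD and CFLAR, both in the 3′ UTR, are shown because FADD fell and CFLAR did not, with the hexamer in capitals:
FADD, chr11:70206757-70206762, plus strand: gaaagttggaacCGTGTCcagcacagaagg
CFLAR, chr2:201172667-201172672, plus strand: catgtggcctttCGTGTCtgacttccttca
Of the 3 with the hexamer, FADD had a log2 fold change of -0.58, TNFRSF10A of -0.23 and CFLAR of 0.14. The others hold no CGTGTC: TNFRSF1A had -0.74, CASP8 -0.41, FAS -0.32, TNFRSF10B and CASP9 -0.25 each, and TRADD 0.15. In CFLAR the site lies at base 10652 of the 14672 nt transcript. Over all genes the median log2 fold change was -0.06 with the hexamer and 0.03 without it, while the median transcript lengths were 3926.5 and 2758 nt. Its part in these results was not tested.

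Ratios between 2 of the genes within a library do not change when all values of that library are multiplied by the same factor, and 5 were compared. Quantile scaling is not such a factor: under it the log2 fold change was -0.26 for CASP8 and -0.59 for FADD, against -0.41 and -0.58 as deposited. TRADD to TNFRSF1A differed most, with ratios of signal of 0.076, 0.088 and 0.0809 in the vector libraries and 0.155, 0.149 and 0.153 in those labelled SRMS shRNA. Adaptor mRNA relative to receptor mRNA was thus 1.87-fold higher, with no overlap. CFLAR to CASP8, inhibitor to caspase, had ratios of 0.528, 0.493 and 0.54 against 0.796, 0.709 and 0.814, which is 1.48-fold higher, also with no overlap. FADD to CASP8 was 6.77, 6.76 and 6.52 against 5.725, 5.863 and 6.401, so the adaptor was lower relative to the caspase by 0.16 on the log2 scale. For each of these 3 the two-sided exact permutation test gave p = 0.1, the smallest that 3 against 3 libraries allow (0.167 after Benjamini-Hochberg adjustment over the 5). CASP8 to CASP9 overlapped, at 3.70 ± 0.235 and 3.35 ± 0.231 (mean ± SD, n = 3 each, exact permutation p = 0.2, adjusted 0.25). TNFRSF10B to TNFRSF10A was 2.26 ± 0.16 and 2.24 ± 0.23 (n = 3 each, exact permutation p = 0.9, adjusted 0.9), a log2 difference of -0.014 beside a pooled SD of 0.13.

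**Figure D3:**
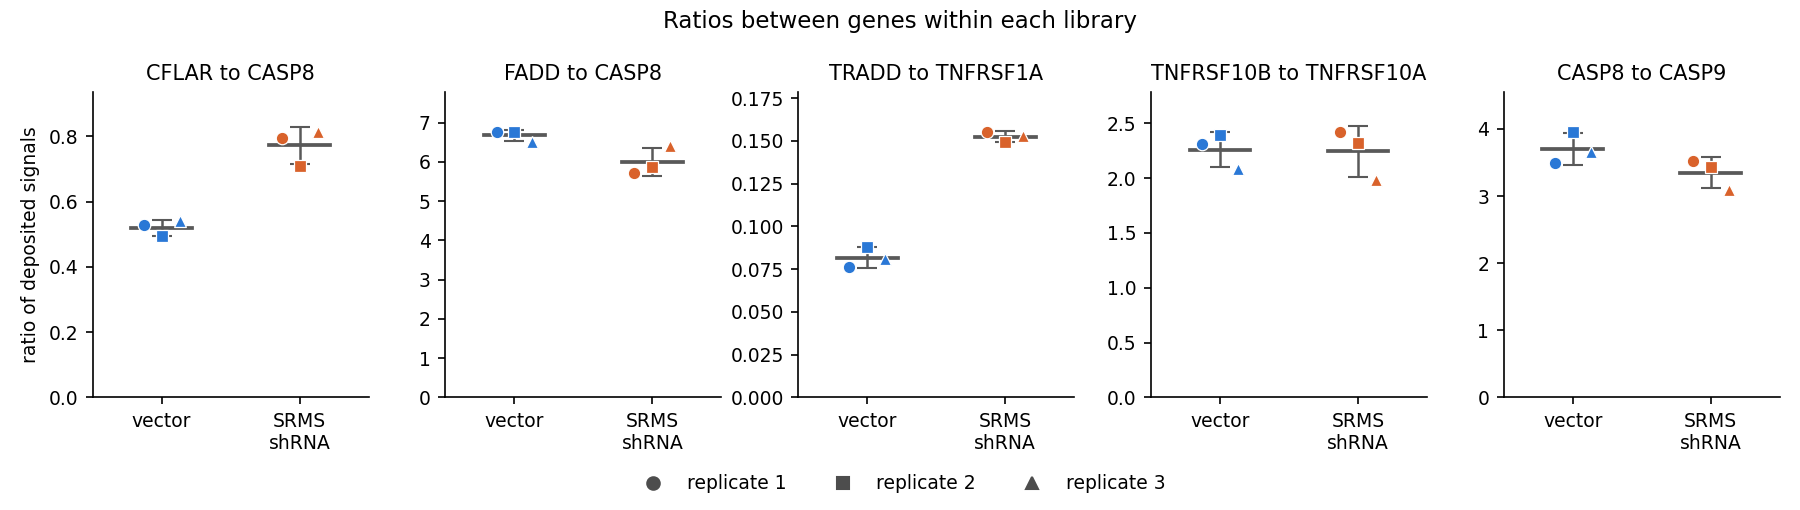
Ratio of deposited signals of 2 genes (vertical axes, linear from 0) within each of the 6 libraries, with mean and SD per construct and a symbol for each replicate number. CFLAR to CASP8 and TRADD to TNFRSF1A are higher in all 3 libraries labelled SRMS shRNA, whereas TNFRSF10B to TNFRSF10A, with means of 2.26 and 2.24, overlaps.

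Levels can be compared between genes only per length of transcript. Per kilobase of the annotated transcript, vector signal was 72.5 ± 1.18 for FADD, 49.7 ± 0.319 for TNFRSF1A, 12.3 ± 0.0754 for CASP8, 11.9 ± 0.418 for TNFRSF10B, 8.04 ± 0.336 for TNFRSF10A, 4.81 ± 0.354 for TRADD, 2.68 ± 0.177 for CASP9 and 2.07 ± 0.257 for FAS (mean ± SD, n = 3). CASP8 and TNFRSF10B did not differ beyond their spread. CFLAR came to 0.709 on its longest principal transcript and 4.89 on the shortest, so its place in the order depends on the transcript. The SDs do not cover the choice of transcript: CASP8 has 15 coding transcripts, and its value rests on 1 of 1629 nt. With SRMS shRNA the signal per kilobase was 48.5 ± 0.492 for FADD and 29.8 ± 1.54 for TNFRSF1A, still the highest of the 9, followed by TNFRSF10B at 9.99 ± 1.01 and CASP8 at 9.15 ± 0.454, again within their spread.

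By the smallest root-mean-square difference of centred log2 values over the 6 libraries, among 10242 genes of at least moderate level, the patterns most like TNFRSF1A were those of RGP1 (0.0197) and PPM1D (0.0255). For FADD it was ITGA5 (0.0156), the fibronectin receptor alpha subunit. Those most like CASP8 were TAF5L (0.0138) and IGF2BP1 (0.0146). These genes share the same libraries and fell by a similar size, which is what the measure selects.

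Of 109 other genes listed for the pathway 94 were measured, of which 35 were lower and 21 higher by limma, that is, near the shares of all genes (30.2% and 26.6%). Their median log2 fold change was -0.014. With libraries aligned on their median 23 were lower and 44 higher, against 17.9% and 44.6% of all genes under that alignment, so the list moved as all genes did. The balance is given by role.

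Ligands were scarce. Of 10 listed, 5 were measured, and FASLG and TNFSF10, which encode FAS ligand and TRAIL, were not among them. TNFSF9, the ligand of 4-1BB, rose from 10.6 ± 0.304 to 16.2 ± 1.37 (mean ± SD, n = 3 each, limma adjusted p = 9.29e-05). LTA, lymphotoxin alpha, rose from 0.312 ± 0.0704 to 1.19 ± 0.0922, and TNF from 0.0964 ± 0.0523 to 0.338 ± 0.0415 (limma adjusted p = 4.9e-05 and 0.00691). These last calls rest on 7 to 43 and 2 to 12 reads per library. No ligand was called lower, against 30.2% of all genes, and the median over the 5 was 0.49.

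Among 13 other receptors of the family, 3 rose and 1 fell (26.6% and 30.2% of all genes). With libraries aligned on their median 8 were higher and 1 lower (44.6% and 17.9% of all genes). TNFRSF10D, which encodes a TRAIL decoy receptor with a truncated death domain, rose from 201 ± 1.88 to 250 ± 6.18 (log2 fold change 0.32, SE 0.0328, limma adjusted p = 2.34e-05), opposite in direction to TNFRSF10A and TNFRSF10B and called higher in all 20 alternatives. Per kilobase its vector signal of 56.7 was above that of both death-domain TRAIL receptors. TNFRSF25, a death receptor known as DR3, rose from 11.99 ± 0.582 to 16.87 ± 0.922 (log2 fold change 0.48, and 0.25 after length and GC correction), and TNFRSF11B, osteoprotegerin, a secreted decoy that also binds TRAIL, from 1.04 ± 0.0732 to 1.59 ± 0.243 (limma adjusted p = 0.0109, and 0.0507 under quantile scaling). NGFR, the p75 neurotrophin receptor, fell from 5.813 ± 0.615 to 1.998 ± 0.348 (log2 fold change -1.34, limma adjusted p = 1.3e-05).

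Adaptors and kinases that act beneath the receptors were lower in 12 of 22 and higher in 4 (30.2% and 26.6% of all genes). Their median was -0.26. TAB2, which links ubiquitin chains to the kinase TAK1, fell from 44.0 ± 1.22 to 20.4 ± 0.299, the smallest adjusted p of the group (log2 fold change -1.09, limma adjusted p = 1.68e-07). MAP3K7, TAK1 itself, fell from 68.0 ± 1.41 to 51.9 ± 1.99 (log2 fold change -0.39, and -0.16 after length and GC correction). MADD, a death-domain protein that binds TNF receptor 1, fell from 76.6 ± 1.19 to 48.6 ± 0.996. RIPK1, the kinase recruited with TRADD, and TRAF2, its ubiquitin-ligase partner, had -0.54 and -0.56 (limma adjusted p = 7.36e-05 and 4.36e-05). The 4 that rose were FAF1, CRADD, PIDD1 and PEA15, from 0.16 to 0.34 on the log2 scale. After length and GC correction CRADD and PIDD1 were no longer called and FAF1 had 0.58. In the group 11 were then lower and 4 higher (24.4% and 24% of all genes). Aligned on the median, 9 were lower and 8 higher (17.9% and 44.6% of all genes).

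Ubiquitin regulators and inhibitors of apoptosis were lower in 7 of 16 and higher in 3 (30.2% and 26.6% of all genes), with a median of -0.09. With libraries aligned on their median 5 were lower and 6 higher (17.9% and 44.6% of all genes). OTULIN, which removes linear ubiquitin chains, fell from 20.3 ± 0.708 to 12.5 ± 1.05, and the ubiquitin ligases ITCH and BIRC6 fell from 36.0 ± 0.52 to 23.3 ± 0.432 and from 55.8 ± 2.68 to 42.1 ± 2.63. XIAP, which inhibits caspases directly, fell too (log2 fold change -0.48, limma adjusted p = 0.00186). SHARPIN and RBCK1, subunits of the linear ubiquitin ligase, and SPATA2 were higher, at 0.48, 0.12 and 0.17. After length and GC correction 3 of the group were lower and 3 higher (24.4% and 24% of all genes). There OTULIN and ITCH fell less (-0.42 and -0.34), and SHARPIN and SPATA2 had 0.24 and 0.27. BIRC6, XIAP and RBCK1 were not called (-0.13, -0.18 and 0.03).

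Of 6 other caspases measured 2 fell and 1 rose (30.2% and 26.6% of all genes). CASP2 fell from 47.9 ± 6.11 to 31.5 ± 4.59 (limma adjusted p = 0.000735). CASP4, an inflammatory caspase, rose from 68.1 ± 0.89 to 78.4 ± 3.57 (limma adjusted p = 0.00244). CASP6 had 8.82 ± 0.336 and 8.47 ± 0.263 (log2 fold change -0.05, limma adjusted p = 0.56). CASP10, a close relative of CASP8, was near the limit of detection with 2 to 15 reads.

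The 11 apoptosome and mitochondrial factors had the opposite balance, with 5 higher and 1 lower (26.6% and 30.2% of all genes). Their median was 0.21. With libraries aligned on their median 9 were higher and 1 lower (44.6% and 17.9% of all genes under that alignment). Cytochrome c, CYCS, rose from 501 ± 22.7 to 579 ± 30.6 and BID, which caspase-8 cuts to reach the mitochondrion, from 35.4 ± 1.08 to 42.2 ± 3.41. ENDOG, a mitochondrial nuclease, rose from 44.1 ± 1.36 to 54.8 ± 3.41, and HSPE1 and SEPTIN4 were the other 2, with SEPTIN4 at 9 to 31 reads. After length and GC correction the group had a median of 0.05 with 3 higher and 1 lower (24% and 24.4% of all genes). ENDOG (-0.02) and HSPE1 (0.07) were then not called. CYCS had 0.38 there and was not called under quantile scaling (0.10). NLRP1 fell (-0.40), and APAF1, the scaffold that activates caspase-9, had 10.2 ± 0.964 and 8.47 ± 0.95 (limma adjusted p = 0.0503).

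Of 12 genes for caspase substrates 6 fell and 1, GSN, rose (30.2% and 26.6% of all genes). PARP1 fell from 451 ± 2.26 to 356 ± 7.34, LMNB1 from 82.8 ± 5.25 to 56.5 ± 2.86 and ROCK1 from 53.1 ± 0.458 to 41.5 ± 2.43. With libraries aligned on their median 3 of this group were lower and 5 higher (17.9% and 44.6% of all genes). After length and GC correction 2 were lower and 2 higher (24.4% and 24% of all genes), with ROCK1 at -0.05 (limma adjusted p = 0.379). Of 9 genes for receptor trafficking and shedding 6 fell and 1, RHBDF2, rose (30.2% and 26.6% of all genes). ADAM17, the protease that sheds TNF and TNF receptor 1, fell from 25.9 ± 1.27 to 17.1 ± 1.01 (limma adjusted p = 3.54e-05) and ADAM10 from 80.9 ± 2.02 to 61.9 ± 4.3. CAV1 fell from 501 ± 5.06 to 450 ± 3.59 and had a value of 0.0046 when aligned on the median. Under that alignment 2 of the 9 were lower and 2 higher (17.9% and 44.6% of all genes). After length and GC correction 3 of these 9 were lower and 1 higher (24.4% and 24% of all genes). ADAM10 then had -0.07 (limma adjusted p = 0.272), and the called genes ERAP1 and SPPL2A changed sign (0.04 and 0.07).

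**Figure D4:**
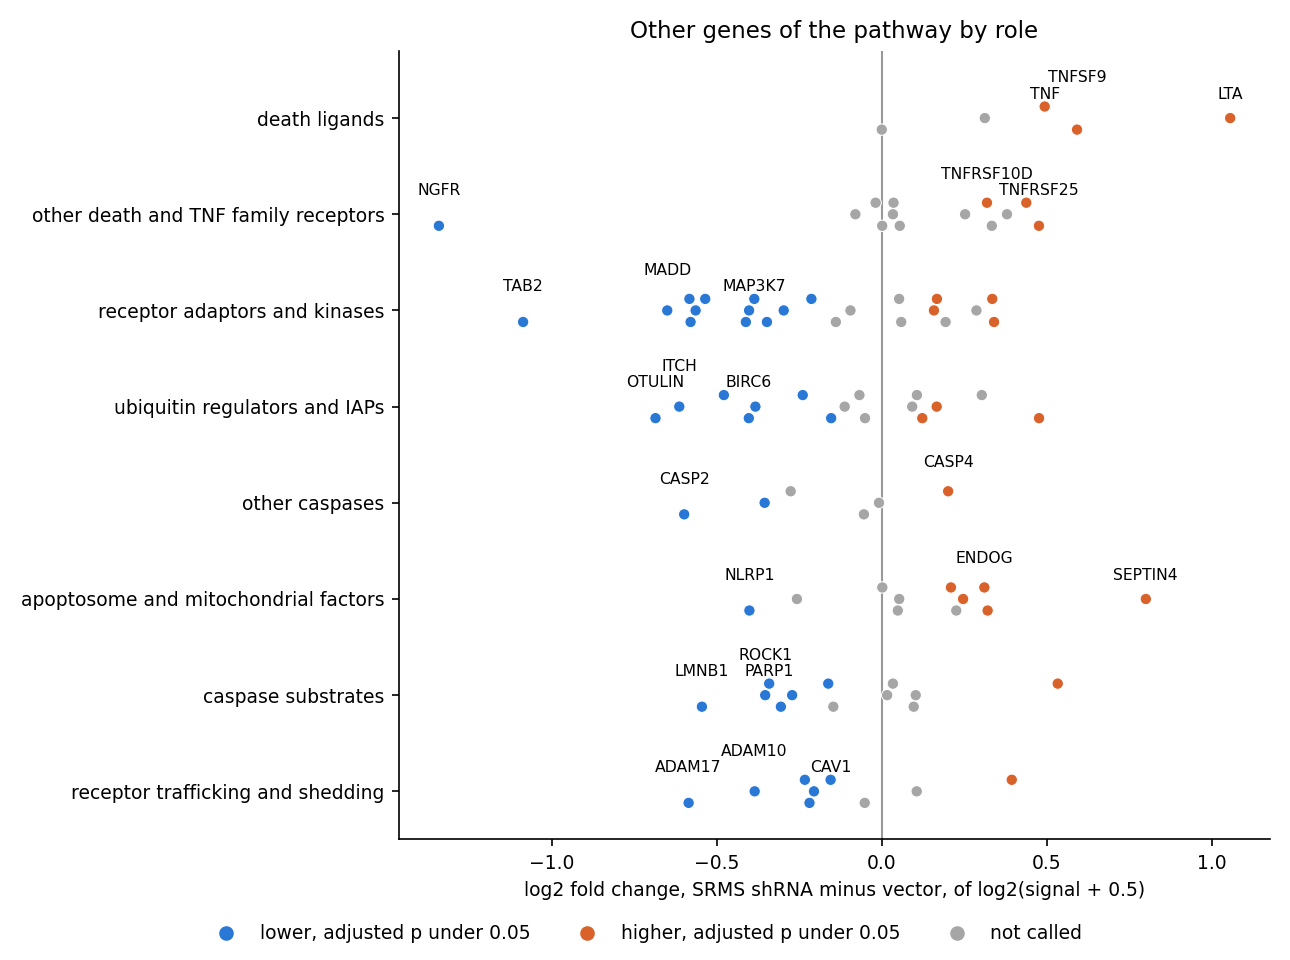
Log2 fold change, SRMS shRNA minus vector, of log2(signal + 0.5) (horizontal axis) for the 94 other pathway genes measured, by role. Colour gives the call at a limma adjusted p under 0.05, and genes with the smallest adjusted p in each role are named, up to 3 per role. The measured ligands called are all above 0, and adaptors and kinases called lower outnumber those called higher by 12 to 4. Of all genes 30.2% were called lower and 26.6% higher.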

How the data were processed

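Poly(A) RNA was read in 12 samples, 6 of which have values here. The submitters' processing notes name the tools FastQC, cutadapt, HISAT2, StringTie and edgeR, and the build GRCh38. For versions, the strand setting and any minimum level of the listed genes: not given in the sources used here. What the authors deposited is a linear signal, although the table is named log CPM. It is reads divided by an effective library size. At least 99.99% of values were whole reads within 0.1. Of 14042 rows, 13 Y copies of pseudoautosomal genes were left out. Symbols matched for 14007 genes, and positions, lengths and GC content come from GENCODE release 29.

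The test was limma 3.58.1 (R 4.3.3) with a mean-variance trend on log2(signal + 0.5), adjusted by Benjamini-Hochberg over 14029 genes. This scale understates changes of low genes. The fit was tested on simulated data. Alternatives were other scalings, pseudocounts of 1 and 0.1, a minimum mean, no trend, array weights, the replicate block, removal of the length and GC trend (splines with 4 degrees of freedom), left-out libraries, and edgeR 4.0.16 and DESeq2 1.42.0 on recovered reads. Ratios used exact permutation (scipy 1.17.1).

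The 9 genes, the lists and the alternatives were chosen with earlier results of these data known. Named were SRMS, the 9 genes, the 3 genes with the smallest adjusted p in each of 8 roles, and the nearest patterns (2 genes, with a mean log2 value of 2 or more, for each of the 3 genes with the largest fold change). Other genes were named after their values were seen. Some genes that this rule names are not reported here.

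Replicates 2 and 3 were closer to each other than to replicate 1: for genes with 5000 reads or more in a pair the chi-square per gene was 2.47 and 2.63, against 25.3 to 44.6. The labels give replicate numbers without saying what they share. Across 11353 genes, deviations from the construct's mean had correlations of 0.486, 0.239 and 0.225 between libraries of the same number, and the samples were therefore treated as paired in the blocked fit. Replicate 2 of a construct and replicate 3 of the other correlated too (0.198 and 0.202).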

Additional observations from a re-analysis of the deposited data

How the results depend on the processing

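All 7 called genes kept their negative sign in all 20 alternatives, and TNFRSF1A, FADD and CASP8 stayed past the threshold in each. With libraries aligned on their median 3 of the 9 genes were lower and 2 higher, and 23 of the 94 other pathway genes lower and 44 higher. With quantile scaling 2 of the 9 were higher. With the length and GC trend removed 5 of the 9 were lower, or 7 with the replicate block as well, and 1 was higher in both fits. Over all genes these fits called 3425 and 4182 lower and 3372 and 4234 higher. In both, TRADD (-0.0502) and ENDOG (-0.0208) changed sign, as did the called genes BIRC2 (0.03), CUL3 (0.05), ERAP1 (0.04) and SPPL2A (0.07). CAV1 changed sign when aligned on the median (0.0046). With replicates 2 and 3 averaged 4 of the 9 were lower, and leaving out 1 library gave 4 to 7. Fits with 1 library left out called 6895 to 8324 of all genes in either direction. The replicate block alone left 7 lower and 0 higher among the 9 and changed no call of them. It gave 38 lower and 28 higher among the 94 others. Over all 14029 genes it called 4805 lower and 4349 higher. Pairing by replicate number cannot change the mean difference of a ratio, for instance 0.57 for CFLAR to CASP8, because every library has a partner. With 3 pairs a sign-flip test cannot go below 0.25, so pairing decides nothing for the ratios. The TNFRSF10B to TNFRSF10A difference ran from -0.0722 to 0.072 over left-out libraries, changing sign without vector replicate 1 (0.0021), vector replicate 2 (0.028) or SRMS shRNA replicate 3 (0.072). Why these values moved was not tested. Over all genes 7969 were called, and 8764 when aligned on the median, with 2510 lower and 6254 higher. FAS and CASP9, with 109 to 347 reads, were the least precise of the 9.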
